A study of Homo sapiens with 12 samples.

Results

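RNA sequencing libraries of cells given SiNPs of 35 nm were compared with libraries of untreated cells, across every gene whose mean FPKM in the 8 libraries was at least 1. FPKM counts the fragments for each kilobase of a gene and is scaled by the size of the library. Levels are means ± SD over the 4 libraries of a group unless each library is given. The filter kept 12208 of the 58735 genes in the deposited table. The table holds 12 libraries in all, of which 4 from cells given 58 nm particles were used only in an alternative fit of all 12 libraries. The cells are labelled hCMEC/D3, an endothelial line that was derived from human brain microvessels and immortalised, and that stands in for the vessel wall of the brain in culture. The control group is 4 libraries labelled untreated, with no particle, dose or vehicle named. The 35 nm group is 4 libraries of cells labelled as given SiNPs, taken here as silica nanoparticles, at 100 µg/mL for 24 h. All libraries come from this 1 cell line, no genetic change is named in either group, and the labels do not state that libraries within a group are separate cultures. The p-values thus rest on a spread between libraries that may be technical.

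Amorphous silica particles enter cells by endocytosis and are carried through endosomes to lysosomes. Endothelial cells of brain vessels form a tight layer that rests on a basement membrane, and they respond to particles and to changes of shape or adhesion through the actin cytoskeleton, matrix proteins and growth factor signals. Targets of NF-kB and genes induced by interferon, which carry inflammatory and antiviral responses, were set aside here so that other genes and pathways could be described.

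Each control library held 10039422 to 10678269 gene reads and each 35 nm library 10039379 to 10469143, and genes with at least 1 read numbered 21023 to 21251 and 20385 to 20855. The first principal component of the 8 libraries, with 41.2% of the variance, placed controls at -18.37 to -12.45 and 35 nm libraries at 11.25 to 19.88. Replicates 1 and 3 at 35 nm lay at 19.54 and 19.88, apart from replicates 2 and 4 at 11.45 and 11.25. Spearman's rho across the genes tested, between a library's deviation from the mean and the GC content of the gene, was -0.46 to -0.24 in controls and 0.14 to 0.56 at 35 nm. The same rho with gene length was 0.15 to 0.17 in controls and -0.24 to -0.074 at 35 nm. Genes that rose had a median GC content of 55.6% and those that fell of 41.4%. Where a list's rises or falls moved by over 1.5 times, brackets after its counts give its rises and then its falls in the other settings. These are rescaling to the upper quartile, quantile normalization, removal of both trends from each library, and a fit without 35 nm replicates 1 and 3 ("without both replicates"). Of 18 endothelial markers, 9 were tested. Endoglin was at 103 ± 3.94 FPKM in controls and 93.4 ± 4.1 at 35 nm, and it was the 1 endothelial marker that fell, with 0 that rose. In controls, CDH5 (1.44 ± 0.147), PECAM1 (1.42 ± 0.173) and VWF (1.02 ± 0.142) were near 1 FPKM and KDR was at 0, so most defining endothelial markers were low or absent in these libraries. The fibroblast or smooth muscle marker COL1A1 was at 129 ± 8.06 FPKM in controls and 157 ± 7.53 at 35 nm. The summed level of the 10 symbols on that marker list was 262 to 283 FPKM in controls and 292 to 311 at 35 nm, and COL1A1 made up most of the difference. COL1A2 was at 108 ± 4.99 and 111 ± 1.22, PDGFRB fell from 24 to 19.1, LUM was at 8.63 and 7.74, and PDGFRA and DES were near 0. The epithelium list summed to 125 to 127 FPKM in controls and 124 to 139 at 35 nm. Most of that was KRT7 (70 ± 1.2 and 85.1 ± 5.27) and KRT18 (49.2 ± 1.32 and 39.9 ± 2.72). EPCAM, CDH1 and ESRP1 were at 0 in all 8 libraries. The leukocyte list summed to 22.6 to 25.9 and 26.2 to 29.2 FPKM, mostly CD74 (19.8 ± 1.38 and 24.3 ± 1.72), while CD14 was at 1.04 and 0.641, PTPRC was near 0, and CD3E, AIF1 and LYZ were among those at 0 in all 8 libraries. In bulk RNA, fewer cells of a type and less RNA per cell cannot be told apart. The part of these markers in the changes below was not tested.

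Across the transcriptome, 4400 of 12208 genes passed an adjusted p of 0.05 in limma's moderated test on log2(FPKM + 1) with Benjamini-Hochberg adjustment, which is 36.0% of those tested. The words rose and fell are kept for genes that passed. Rises numbered 2524 (20.7% of genes tested) and falls 1876 (15.4%), so that 57.4% of calls were rises. Counts of list members given below stand beside these shares of 20.7% and 15.4%. The share of rises depended on level. Of 2370 coding genes at 20 FPKM or more, 1083 rose (45.7%) and 337 fell (14.2%). Of 3214 coding genes at 1 to 5 FPKM, 274 rose (8.53%) and 438 fell (13.6%). The lists were not matched to other genes by level. Rescaling to the upper quartile gave 2019 rises and 2458 falls, or 45.1% rises, and quantile normalization gave 2098 and 2083, or 50.2%. The groups of libraries did not overlap in 36.0% of genes. Most changes were small: the median absolute log2 change was 0.15, and 85 called genes changed by at least 1 on the log2 scale, 37 upward and 48 downward. Of these 85 genes, 41 belonged to the NF-kB or interferon lists. Outside these lists, 2478 genes rose and 1797 fell among 12057 tested. Once the length and GC trends were removed, 1929 genes rose (15.8%) and 1411 fell (11.6%), and 2520 of the 4400 calls kept their direction and passed. In the plot of change against level, the largest changes in both directions included noncoding genes of low level, and genes of the mitochondrial chromosome formed a group of abundant transcripts below 0.

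**Figure D1:**
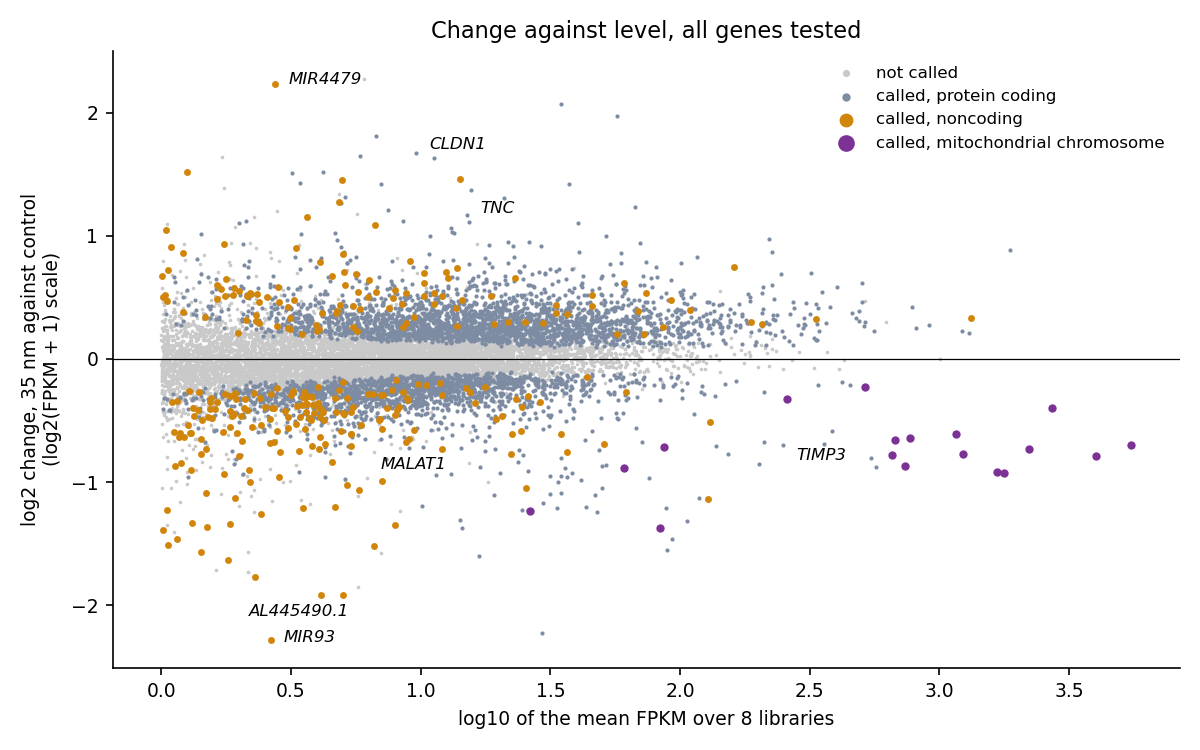
Change at 35 nm against control, as a log2 fold change on the log2(FPKM + 1) scale, against the log10 of the mean FPKM over 8 libraries, with 1 point per gene tested (12208 genes). Called genes (4400) are coloured by class; CLDN1 and TNC lie above 0, and TIMP3, MALAT1 and AL445490.1 below it.

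The strongest rise among protein-coding genes at a mean of 5 FPKM or more, outside the lists set aside, was that of CLDN1, which codes for claudin-1, a membrane protein of tight junctions. CLDN1 (chromosome 3, 190305701 to 190322475, minus strand, GRCh38) was at 3.2, 4.29, 4.43 and 4.37 FPKM in the 4 controls and at 16.7, 15.9, 13 and 15.1 at 35 nm. The mean at 35 nm was 3.73 times as high, a log2 change of 1.68 ± 0.10 (SE, adjusted p = 3.72e-06). Genes ranked here were picked among called genes whose groups do not overlap, so the lack of overlap is no finding about them. TNC, which codes for the matrix glycoprotein tenascin-C that appears in tissue repair, was at 8.39, 9.83, 9.37 and 9.93 FPKM in controls and 20.6, 21.8, 22.1 and 21.4 at 35 nm. Its groups lay far apart with little spread in either, and the log2 change was 1.11 ± 0.055 (adjusted p = 1.81e-06). Ornithine decarboxylase, the enzyme that starts polyamine synthesis, is coded by ODC1 (chromosome 2, 10439968 to 10448504, minus strand), which was at 34.2, 33.7, 35.5 and 33.1 FPKM in controls and 72.1, 67.4, 70 and 67.5 at 35 nm. The ODC1 mean was 2.03 times as high (log2 change 1.00 ± 0.038, adjusted p = 2.87e-07).

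G0S2, an inhibitor of the lipase that breaks down stored fat, was at 38.1, 35, 39.8 and 46.4 FPKM in controls and 105, 89.3, 98.2 and 86.8 at 35 nm (adjusted p = 1.89e-05). Mitochondrial proteins coded in the nucleus were among the largest rises. COX6A1, a subunit of cytochrome c oxidase, went from 8.36 ± 1.88 to 22.9 ± 2.06 FPKM (log2 change 1.37 ± 0.13), and MRPL12, a protein of the mitochondrial ribosome, from 3.33 ± 0.899 to 10.7 ± 3.49 FPKM (log2 change 1.42 ± 0.22). The 35 nm libraries of MRPL12 ran from 8.27 to 15.9 FPKM, a wide spread beside that of COX6A1, and its adjusted p was 0.00215. RPL26, of the cytosolic ribosome, rose from 5.04 ± 0.762 to 12.1 ± 1.27 FPKM.

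Genes of varied roles completed the group of large rises. NUAK2, a kinase related to AMPK, rose from 6.93 ± 0.345 to 14.9 ± 0.89 FPKM and TMEM132A from 14.5 ± 0.692 to 29 ± 1.15 FPKM. EDF1, a cofactor that binds collided ribosomes, rose from 47.7 ± 5.56 to 92.4 ± 10.3 FPKM and FAM207A from 8.51 ± 0.609 to 18.3 ± 0.835 FPKM. NHP2, a protein of the small nucleolar particles that modify ribosomal RNA, rose from 17.6 ± 2.69 to 34.7 ± 4.5 FPKM, but 27.4% of its exon length overlaps exons on the opposite strand, and the use of strand in counting was not given in the sources used here. TFRC, the transferrin receptor that brings iron into the cell, rose from 22.9 ± 0.473 to 37.6 ± 1.29 FPKM and CYR61, a matricellular protein, from 188 ± 6.04 to 304 ± 11.1 FPKM; both were among the 6 rises with the smallest p. Each of these genes kept its call when any 1 library was left out and once the length and GC trends were removed.

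**Figure D2:**
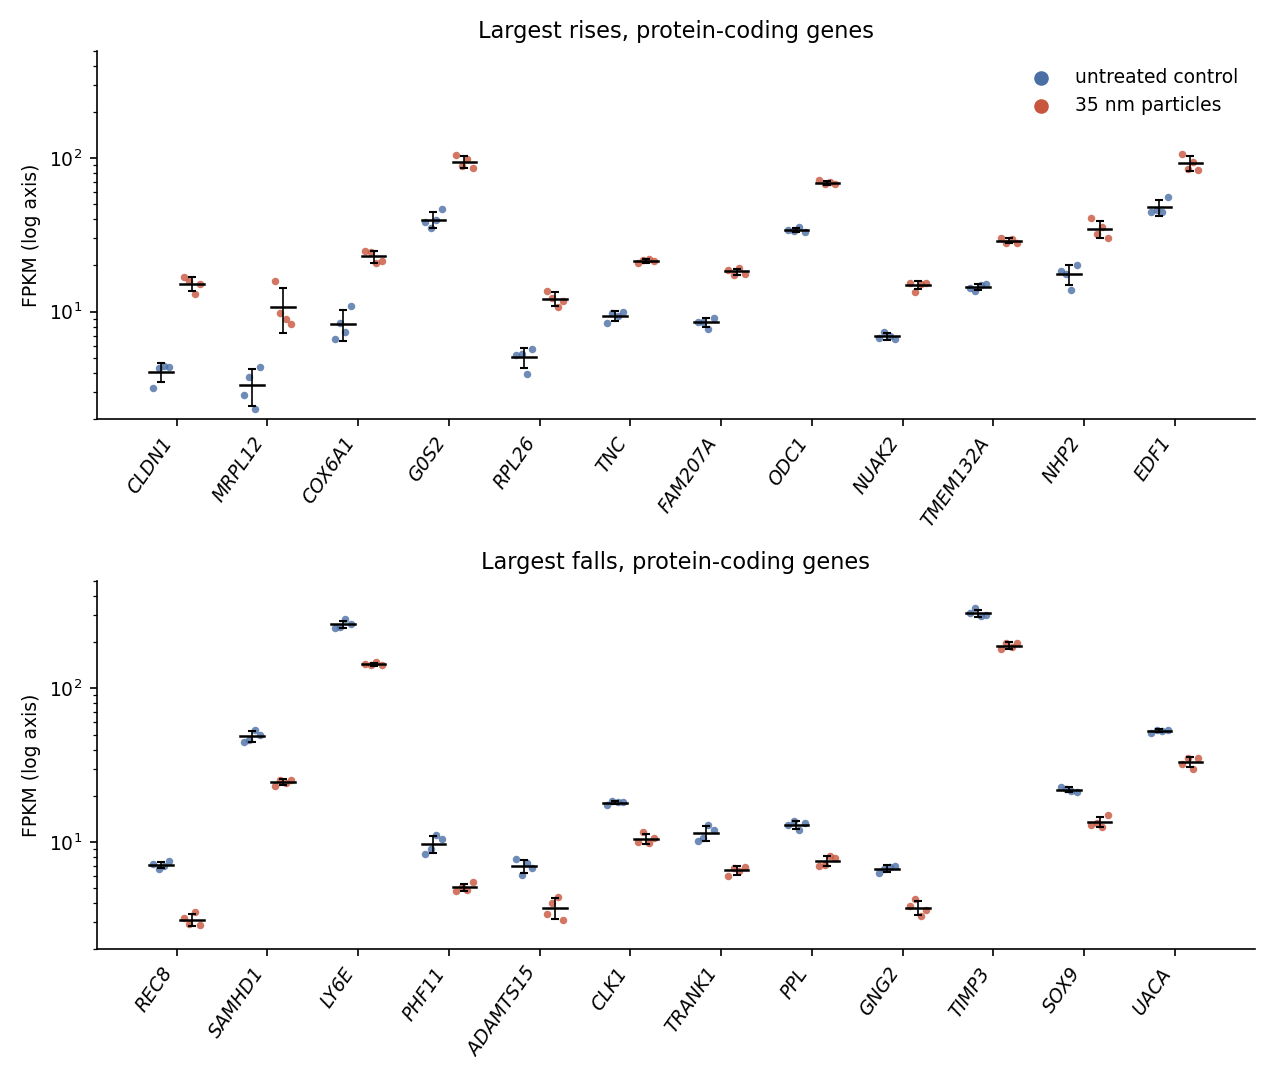
FPKM (log axis) of the 12 largest rises and 12 largest falls among protein-coding genes at a mean of 5 FPKM or more, outside the NF-kB and interferon lists. Points are libraries (4 per group), bars the mean ± SD. Genes were picked among those whose 4 untreated and 4 35 nm libraries do not overlap, and CLDN1 goes from 4.07 to 15.2 FPKM on average.

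The largest falls of coding genes were smaller in log2 terms than the largest rises, and were likewise picked among genes whose groups do not overlap. REC8, a cohesin subunit known from meiosis, was at 7.14, 6.71, 6.94 and 7.54 FPKM in controls and 3.19, 2.94, 3.48 and 2.88 at 35 nm, a mean 0.441 times that of controls (log2 change -0.97 ± 0.064, adjusted p = 7.02e-06). SAMHD1, which breaks down deoxynucleotides and restricts viruses, was at 45, 46.3, 53.4 and 49.9 FPKM and then 23.2, 25.2, 24.4 and 25.4 (log2 change -0.96 ± 0.056, adjusted p = 3.72e-06). The 35 nm libraries of both genes spread less, in FPKM, than the controls did. LY6E, a surface protein known to be induced by interferon though it is not on the list set aside, had the smallest p of all falls considered. It was at 248, 252, 281 and 262 FPKM in controls and 145, 141, 148 and 141 at 35 nm (log2 change -0.85 ± 0.043, adjusted p = 1.81e-06). PHF11 fell from 9.7 ± 1.24 to 5.06 ± 0.293 FPKM, and TRANK1 from 11.4 ± 1.28 to 6.53 ± 0.416 FPKM. As LY6E shows, the list set aside does not hold every gene that interferon induces. Other falls named here may be such genes too.

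TIMP3, a matrix-bound inhibitor of metalloproteases, was the most abundant of the 12 largest falls. It was at 311, 331, 294 and 301 FPKM in controls and 179, 196, 186 and 199 at 35 nm (log2 change -0.70 ± 0.047, adjusted p = 7.9e-06). SOX9, a transcription factor known from cartilage and from stem cells, was at 22.9, 22.1, 21.4 and 21.1 FPKM and then 13, 13.4, 12.6 and 14.9. SOX9 is also on the astrocyte marker list, of which AQP4 and ALDH1L1 were at 0 in all 8 libraries. GJA1, the most abundant gene of that list, was at 66.7 ± 5.49 FPKM in controls and 68 ± 0.521 at 35 nm. CLK1, a kinase that phosphorylates splicing factors, fell from 18 ± 0.465 to 10.5 ± 0.817 FPKM (log2 change -0.73 ± 0.054). Periplakin (PPL), which links intermediate filaments to the cell edge, fell from 13 ± 0.738 to 7.49 ± 0.566 FPKM, and ADAMTS15, a matrix protease, from 6.96 ± 0.72 to 3.71 ± 0.574 FPKM. UACA fell from 52.9 ± 1.14 to 33.2 ± 2.52 FPKM. GNG2, a gamma subunit of heterotrimeric G proteins, fell from 6.72 ± 0.31 to 3.74 ± 0.395 FPKM (adjusted p = 6.85e-05). All 12 falls kept their call in every alternative fit.

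Promoters were searched for the letters of known binding motifs, since several genes that fell are known interferon targets though not on the list set aside. The windows are RefSeq promoters (GRCh38.p14) of 250 bases before to 50 bases after a transcript start, which matched 8996 of the genes tested by symbol, with 13068 starts. The core of the interferon-stimulated response element, GAAA, 2 bases of any kind and GAAA on either strand, stood in 51 of the 81 interferon-list genes with a window (63.0%) and in 361 of all 8996 (4.01%). Among genes outside both lists it stood in 72 of 1341 that fell (5.37%) and in 54 of 1974 that rose (2.74%). These shares are descriptions and carry no test, and they were not adjusted for base composition or for the number of windows of a gene. The 3 genes below fell and hold the element in a promoter window, marked in capitals. The TRIM69 element lies on the other strand, so its complement is shown. The GNG2 window belongs to a start inside the gene, whose first annotated base is 51826195. TRIM69 and MYD88 were chosen after their values and promoters had been seen. TRIM69, a tripartite motif protein, was at 5.06, 5.7, 6.53 and 6.65 FPKM in controls and 2.47, 2.57, 2.48 and 2.77 at 35 nm (log2 change -0.96 ± 0.081, adjusted p = 2.68e-05). MYD88, the adaptor of Toll-like and interleukin-1 receptors, fell from 22.8 ± 2.7 to 15.6 ± 0.821 FPKM (adjusted p = 0.000761). In both genes the 35 nm libraries lay below every control.
TRIM69 (chr15:44736278-44736577, plus strand): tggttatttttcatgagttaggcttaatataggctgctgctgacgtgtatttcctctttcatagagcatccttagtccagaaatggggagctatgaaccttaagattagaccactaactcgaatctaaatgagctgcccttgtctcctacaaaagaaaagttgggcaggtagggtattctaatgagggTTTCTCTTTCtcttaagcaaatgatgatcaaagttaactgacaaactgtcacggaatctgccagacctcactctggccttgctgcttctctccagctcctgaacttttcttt
GNG2 (chr14:51860362-51860661, plus strand): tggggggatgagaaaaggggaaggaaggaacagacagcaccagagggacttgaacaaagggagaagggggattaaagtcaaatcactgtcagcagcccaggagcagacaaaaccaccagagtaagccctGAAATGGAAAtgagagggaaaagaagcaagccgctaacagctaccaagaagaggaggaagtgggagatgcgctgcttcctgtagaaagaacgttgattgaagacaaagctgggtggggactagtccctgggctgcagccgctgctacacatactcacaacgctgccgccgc
MYD88 (chr3:38138411-38138710, plus strand): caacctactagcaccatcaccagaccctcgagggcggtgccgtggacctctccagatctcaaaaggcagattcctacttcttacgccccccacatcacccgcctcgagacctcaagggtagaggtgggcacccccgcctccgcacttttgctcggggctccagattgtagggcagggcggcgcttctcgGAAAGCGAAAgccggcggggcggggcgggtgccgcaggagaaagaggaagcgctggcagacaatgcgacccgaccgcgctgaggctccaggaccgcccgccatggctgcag

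The E-box CACGTG, the site of MYC and related factors, reads the same on both strands. It stood in 1153 of the 8996 genes (12.8%), in 319 of 1974 genes that rose outside both lists (16.2%) and in 166 of 1341 that fell (12.4%). The promoter at 1 of the 2 starts of ODC1, the largest rise among polyamine genes, holds 2 copies, which are in capitals here. A match shows that the letters are present and nothing about binding in these cells.
ODC1 (chr2:10447963-10448262, minus strand): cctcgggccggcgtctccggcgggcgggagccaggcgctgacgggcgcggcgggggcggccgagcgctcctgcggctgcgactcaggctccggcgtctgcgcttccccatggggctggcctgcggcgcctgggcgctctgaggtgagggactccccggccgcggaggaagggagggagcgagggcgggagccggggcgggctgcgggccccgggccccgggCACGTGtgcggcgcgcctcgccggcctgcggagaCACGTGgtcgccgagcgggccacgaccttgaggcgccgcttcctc
The AP-1 site TGANTCA stood in 6.69% of genes that rose and 6.19% of genes that fell outside both lists, against 6.66% of all 8996. The TATA box letters TATAAA stood in 7.40% of rises and 9.55% of falls outside the lists, against 7.75% of all. Genes that rose were richer in GC (median 55.6%) than those that fell (41.4%), and the part of base composition in any of these motif shares was not tested.

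Among lists of the protein synthesis machinery, rises outnumbered falls, and many members of each list did not pass the test. Of all coding genes at 20 FPKM or more, 45.7% rose, and the part of level in these counts was not tested. Of 58 tested factors of ribosome biogenesis, 36 rose and 0 fell [upper quartile 33 and 1] (62.1% higher, where 20.7% of all genes tested were), with a median log2 change of 0.24, where the median of all genes was 0.0033. RRS1, needed for the large ribosomal subunit, rose from 18.4 ± 1.06 to 31.8 ± 0.458 FPKM (adjusted p = 3.72e-06) and RRP9, a protein of the U3 small nucleolar particle, from 13.9 ± 0.44 to 22 ± 1.29 FPKM. Among 39 aminoacyl-tRNA synthetases and their partners, which charge transfer RNAs, 17 rose and 0 fell [quantile 11 and 0, without both replicates 11 and 0]. The valine enzyme VARS rose from 19.2 ± 0.828 to 27.9 ± 0.79 FPKM and FARSA, a subunit of the phenylalanine enzyme, from 43.3 ± 2.1 to 58.9 ± 2.69 FPKM. Translation factors rose in 21 of 48 cases and fell in 4 [trends removed 23 and 2, without both replicates 16 and 2]. EIF4EBP1, a repressor of cap-dependent initiation, had the largest rise among them (from 62.7 ± 5.86 to 99.8 ± 7.55 FPKM), and EIF5A, whose activity depends on a polyamine-derived residue, rose from 149 ± 3 to 216 ± 11.1 FPKM. EIF4A2, a helicase of initiation, went the other way, from 64.2 ± 2 to 50.7 ± 1.17 FPKM (log2 change -0.33 ± 0.036, adjusted p = 0.000113). With the trends removed, the log2 change was over 1.5 times smaller for FARSA (0.44, then 0.24), EIF4A2 (-0.33, then -0.18) and RRP9 (0.63, then 0.42).

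Proteins of the mitochondrial ribosome rose in 34 of 78 cases and fell in 3 [without both replicates 22 and 2], with a median log2 change of 0.12. After MRPL12, MRPS24 (from 1.1 ± 0.255 to 3.04 ± 0.55 FPKM, with 23.2% of its exon length shared with another gene) and MRPL24 (from 11.1 ± 1.77 to 19.6 ± 1.05 FPKM) rose most. The mitochondrial chromosome showed the opposite direction, as given with the gene classes below. Proteasome subunits, which make up the machine that degrades tagged proteins, rose in 23 of 43 cases and fell in 0 [upper quartile 18 and 2, quantile 14 and 2] (53.5% higher, median 0.17). Core subunit PSMA7 rose from 85 ± 1.36 to 120.0 ± 5.03 FPKM and the catalytic subunit PSMB5 from 52.1 ± 1.9 to 73.6 ± 4.48 FPKM. The largest change on that list was that of the cap subunit PSMC1, from 6.47 ± 1.03 to 9.74 ± 0.93 FPKM, of whose exon length 75.8% overlaps exons of the opposite strand. The medians of these 5 lists stayed above 0 under upper-quartile rescaling, quantile normalization and removal of the trends. Many ribosomal and other abundant genes have near-identical processed pseudogenes, and the handling of reads with several alignments was not given in the sources used here. Removal of the trends made the log2 change over 1.5 times smaller for PSMA7 (0.49, then 0.30).

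**Figure D3:**
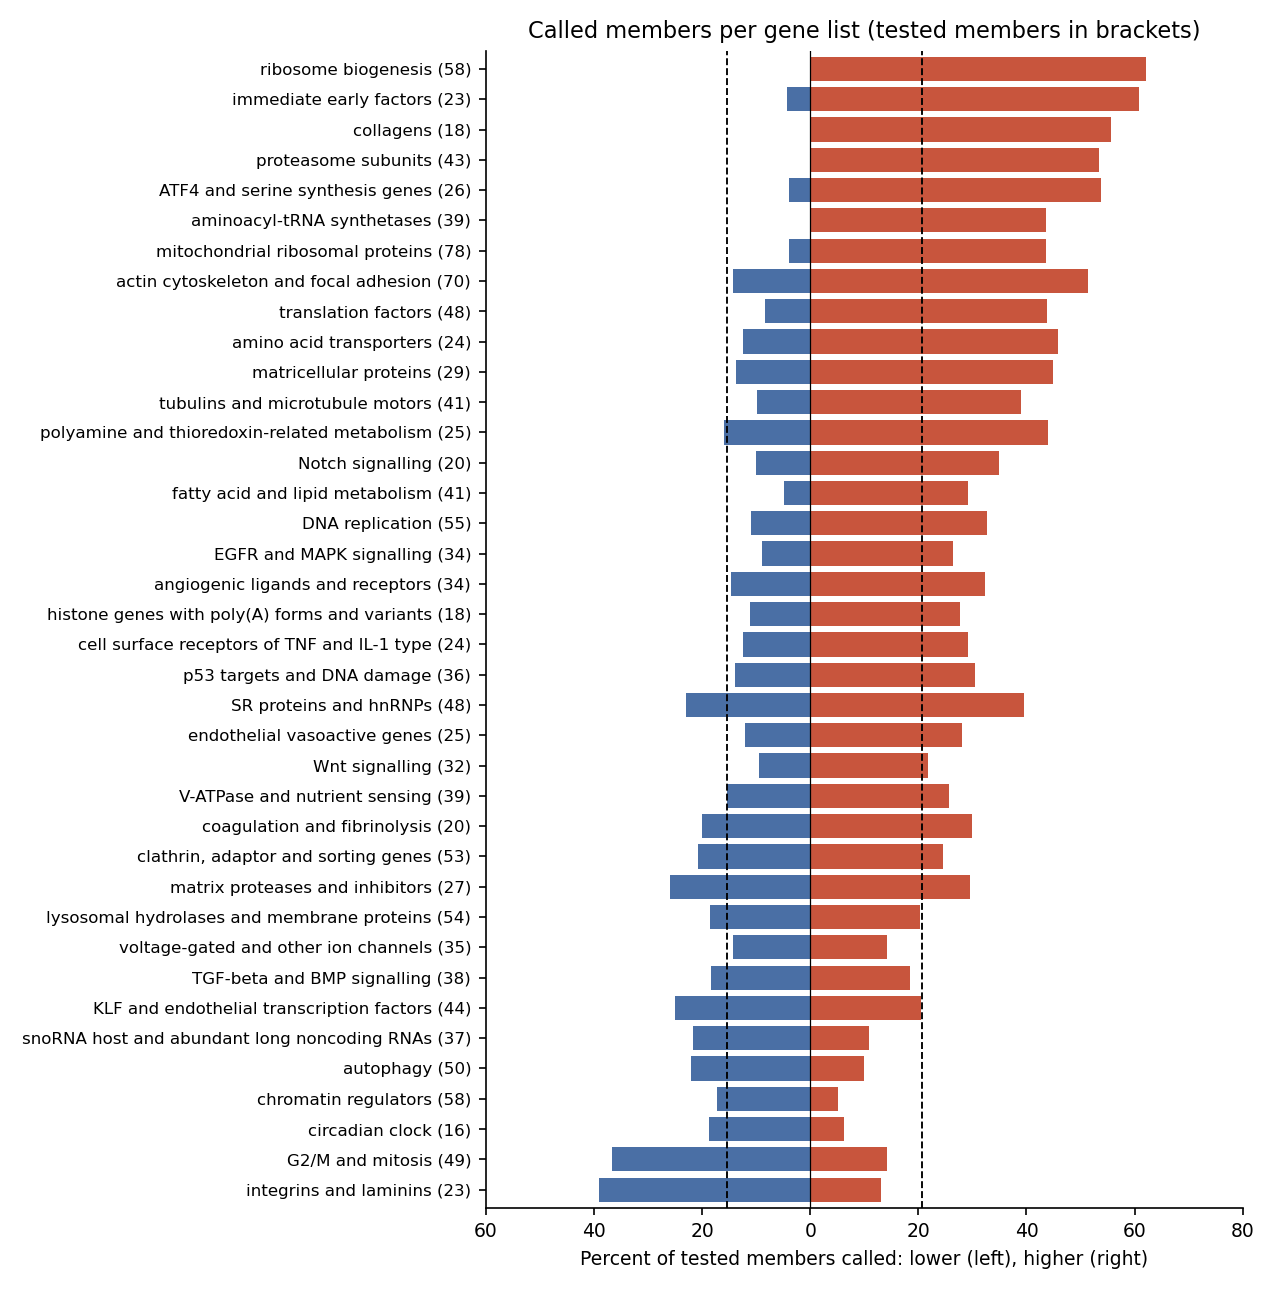
Percent of tested members that rose (right, red) or fell (left, blue) in each of 38 gene lists, with the number of tested members in brackets. Dashed lines mark the share of all 12208 genes tested, 20.7% higher and 15.4% lower; ribosome biogenesis, collagens, proteasome subunits and aminoacyl-tRNA synthetases have rises and no falls, and integrins and laminins have the largest share of falls (39.1%).

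Among matrix genes, collagens gave rises and no falls, while integrins and laminins gave more falls than rises. Collagen chains rose in 10 of 18 tested cases and fell in 0, with a median log2 change of 0.21. COL6A1, of the collagen that surrounds cells as microfibrils, rose from 237 ± 0.937 to 315 ± 15.7 FPKM (adjusted p = 5.5e-05). COL4A2, of the basement membrane network, rose from 28.5 ± 0.612 to 38.3 ± 1.96 FPKM and COL7A1, of anchoring fibrils, from 3.17 ± 0.216 to 5 ± 0.29 FPKM. Integrins and laminins, the receptors and basement membrane proteins of adhesion, fell more often than they rose: 9 of 23 fell (39.1%, where 15.4% of all genes did) and 3 rose [quantile 2 and 14]. ITGB4, which binds laminin in hemidesmosomes, fell from 6.79 ± 0.432 to 4.08 ± 0.265 FPKM (log2 change -0.62 ± 0.062), ITGA10 from 19.2 ± 1.45 to 12.8 ± 0.736 FPKM and the laminin receptor subunit ITGA6 from 24.1 ± 0.916 to 18.2 ± 1.26 FPKM. LAMB3, a laminin chain, rose from 40.4 ± 1.82 to 58.5 ± 3.57 FPKM and ITGA5, the alpha subunit of the fibronectin receptor, from 44.5 ± 0.696 to 54 ± 1.78 FPKM. Changes in the adhesion list therefore ran both ways among named partners. The log2 change shrank by over 1.5 times with the trends removed for COL6A1 (0.41, then 0.27).

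Matricellular proteins, which tune contact between cells and matrix, rose in 13 of 29 cases and fell in 4. Beside TNC and CYR61, CTGF, a growth factor-binding protein, rose from 169 ± 6.82 to 244 ± 2.95 FPKM (log2 change 0.53 ± 0.036). LTBP3 (from 16.3 ± 1.69 to 10.3 ± 0.274 FPKM) and LTBP1 (from 59.3 ± 0.594 to 48.4 ± 1.26 FPKM), which hold latent TGF-beta in the matrix, fell, and so did TGFBI, from 114 ± 2.55 to 99.6 ± 4.23 FPKM. Matrix proteases and their inhibitors rose in 8 of 27 cases and fell in 7 [quantile 8 and 12]. Inhibitors TIMP3 and TIMP2 (from 131 ± 5.1 to 96 ± 0.394 FPKM) fell while the proteases ADAMTS1 (from 3.03 ± 0.225 to 4.48 ± 0.156 FPKM) and ADAM8 (from 1.28 ± 0.107 to 2.4 ± 0.357 FPKM) rose. This list's median was 0.025 and turned to -0.017 under upper-quartile rescaling and -0.065 under quantile normalization.

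Actin and focal adhesion genes gave 36 rises (51.4%) and 10 falls among 70 tested [quantile 25 and 16, trends removed 35 and 6, without both replicates 30 and 6]. TMSB10, a small protein that binds actin monomers, rose from 1314 ± 152 to 2429 ± 272 FPKM. MYL6, a myosin light chain, rose from 43.6 ± 5.2 to 75.3 ± 8.21 FPKM and TAGLN, an actin-binding protein of contractile cells, from 7.54 ± 0.738 to 13.4 ± 1.31 FPKM. The falls included TES (from 29.8 ± 1.53 to 24.7 ± 1.13 FPKM), GSN, which severs actin filaments (from 13.1 ± 0.761 to 10.8 ± 0.683 FPKM), and LIMA1 (from 41 ± 2.36 to 34.3 ± 1.79 FPKM). Tubulins and microtubule motors rose in 16 of 41 cases and fell in 4 [upper quartile 13 and 8, quantile 9 and 6]. The tubulin genes TUBB6 (from 82.9 ± 2.24 to 123 ± 5.31 FPKM) and TUBB2A (from 7.16 ± 0.611 to 11.4 ± 0.383 FPKM) and the kinesin KIF1C (from 27.9 ± 1.13 to 39.3 ± 2.41 FPKM) rose most, while the dynein chain DYNC1LI2 fell from 20.7 ± 0.483 to 17 ± 0.537 FPKM. The tubulin list's median of 0.046 turned to -0.015 under quantile normalization, and that of the actin list stayed above 0 in all scalings. With the trends removed, the log2 change was over 1.5 times smaller for LIMA1 (-0.25, then -0.12), TUBB2A (0.61, then 0.40) and DYNC1LI2 (-0.27, then -0.17).

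In the TGF-beta and BMP list, the 3 largest rises were those of secreted antagonists. Noggin (NOG) went from 2.88 ± 0.446 to 6.61 ± 1.1 FPKM (log2 change 0.97 ± 0.11, adjusted p = 0.000188), gremlin (GREM1) from 20.4 ± 1.14 to 33.5 ± 1.59 FPKM and follistatin (FST) from 15.7 ± 0.944 to 24.5 ± 2.3 FPKM. ID2, a known target of BMP signals, fell from 3.04 ± 0.398 to 1.7 ± 0.384 FPKM (adjusted p = 0.00343). Of the whole list 7 of 38 members rose and 7 fell [upper quartile 6 and 11, trends removed 11 and 11, without both replicates 6 and 4]. That is 18.4% in each direction, where 20.7% of all genes tested rose and 15.4% fell. Of 32 Wnt genes, 7 rose and 3 fell [upper quartile 6 and 5, without both replicates 5 and 1], shares close to those of all genes for rises. The ligand WNT5B (from 11.1 ± 0.81 to 16.5 ± 1.68 FPKM), the receptor FZD8 (from 13.7 ± 0.692 to 19.1 ± 0.596 FPKM) and the secreted inhibitor DKK1 (from 15.6 ± 0.569 to 21.5 ± 0.649 FPKM) rose, and the receptor ROR1 fell from 5.23 ± 0.577 to 4.02 ± 0.255 FPKM, with an adjusted p of 0.0901 without 35 nm replicates 1 and 3. Notch genes gave 7 rises and 2 falls among 20 tested [trends removed 4 and 4, without both replicates 4 and 2]. The Notch target NRARP rose from 1.82 ± 0.3 to 3.55 ± 0.947 FPKM and the receptor NOTCH3 fell from 24.3 ± 1.27 to 19 ± 1.16 FPKM. Removal of the trends made the log2 change over 1.5 times smaller for NRARP (0.67, then 0.41) and FZD8 (0.45, then 0.28).

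Among 34 EGFR and MAPK genes 9 rose (26.5%, where 20.7% of all genes did) and 3 fell [trends removed 7 and 1, without both replicates 8 and 1]. The EGFR ligand HBEGF rose from 11.9 ± 0.504 to 18.1 ± 1.69 FPKM and AXL, a receptor kinase, from 109 ± 3.75 to 150.3 ± 4.01 FPKM (log2 change 0.46 ± 0.036, adjusted p = 1.86e-05). ERRFI1, a feedback inhibitor of EGFR, fell from 24.3 ± 1.14 to 20.9 ± 0.2 FPKM. Immediate early factors rose in 14 of 23 cases and fell in 1 [quantile 11 and 2, trends removed 7 and 2, without both replicates 9 and 0]. JUNB, a subunit of AP-1, rose from 16.2 ± 1.85 to 29.6 ± 2.1 FPKM, MAFF from 9.15 ± 0.64 to 14 ± 1.05 FPKM and SRF, the factor that drives many actin genes, from 15.8 ± 0.418 to 21.6 ± 1.23 FPKM; all 3 passed also with the trends removed. Among receptors and ligands of TNF and interleukin-1 type, 7 of 24 rose and 3 fell [without both replicates 4 and 2]. IL7R, the interleukin-7 receptor chain, rose from 2.45 ± 0.194 to 5.04 ± 0.191 FPKM (log2 change 0.81 ± 0.062) and TNFSF9 from 12.4 ± 0.69 to 19.1 ± 1.89 FPKM. The log2 change shrank by over 1.5 times with the trends removed for TNFSF9 (0.59, then 0.39).

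Genes that act on vessels changed in both directions. Among 34 angiogenic ligands and receptors 11 rose and 5 fell [trends removed 11 and 8]. Ephrin-A1 (EFNA1, from 2.09 ± 0.177 to 3.63 ± 0.38 FPKM) and the co-receptor neuropilin-2 (NRP2, from 5.56 ± 0.387 to 7.91 ± 0.275 FPKM) rose, and the guidance receptors UNC5B (from 4.2 ± 0.258 to 2.79 ± 0.0827 FPKM) and PLXND1 (from 22.6 ± 1.69 to 18.1 ± 1.21 FPKM) and the receptor PDGFRB (from 24 ± 1.15 to 19.1 ± 1.03 FPKM) fell. PDGFRB is also on the fibroblast or smooth muscle marker list, whose COL1A1 rose. Vasoactive genes gave 7 rises and 3 falls among 25 tested [quantile 6 and 5]. CAVIN1, a coat protein of caveolae, rose from 154 ± 6.96 to 218 ± 10.6 FPKM, while CAV2, a membrane protein of caveolae, fell from 14.3 ± 0.529 to 11.2 ± 1.16 FPKM and CAVIN2 from 32.3 ± 1.41 to 26.6 ± 2.89 FPKM, although CAVIN2 did not pass without 35 nm replicates 1 and 3 (adjusted p = 0.0664). Prostaglandin E synthases diverged as well, with PTGES2 higher (from 15.1 ± 0.538 to 20.3 ± 1.01 FPKM) and PTGES lower (from 7.06 ± 0.673 to 4.5 ± 0.658 FPKM). Endothelin-1 (EDN1) rose from 1.62 ± 0.373 to 2.77 ± 0.269 FPKM, with an adjusted p of 0.0583 without 35 nm replicates 1 and 3. Of 20 clotting genes 6 rose (30%) and 4 fell (20%), where 20.7% of all genes tested rose and 15.4% fell. TFPI2, a protease inhibitor, rose from 34.4 ± 2.81 to 47.7 ± 5.81 FPKM, whereas TFPI, the inhibitor of the tissue factor pathway, fell from 41.5 ± 2.07 to 33.6 ± 2.42 FPKM, protein S (PROS1) from 8.23 ± 0.175 to 6.6 ± 0.627 FPKM and the ecto-enzyme NT5E from 132 ± 7.66 to 109 ± 5.2 FPKM. With the trends removed, the log2 change was over 1.5 times smaller for PTGES2 (0.41, then 0.20), CAV2 (-0.33, then -0.20), TFPI (-0.30, then -0.16) and PROS1 (-0.28, then -0.17).

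Transcription factors of the Krüppel-like, ETS, SOX, FOX, GATA and other families gave 9 rises among 44 tested and 11 falls [upper quartile 3 and 11, trends removed 4 and 7, without both replicates 2 and 5]. These are 20.5% and 25%, where 20.7% of all genes tested rose and 15.4% fell. Beside SOX9, MEF2A fell from 14.9 ± 0.518 to 9.24 ± 1.16 FPKM (log2 change -0.64 ± 0.078) and ETV1 from 8.87 ± 0.415 to 6.14 ± 0.835 FPKM. KLF16 rose from 14.9 ± 1.33 to 19.8 ± 1.59 FPKM and SOX12 from 11.9 ± 0.355 to 15 ± 1.17 FPKM. Removal of the trends made the log2 change over 1.5 times smaller for KLF16 (0.39, then 0.16), SOX12 (0.31, then 0.18) and ETV1 (-0.47, then -0.28).

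Genes of amino acid supply gave more rises than falls. Of 24 amino acid transporters 11 rose and 3 fell, led by SLC7A2, a carrier of arginine and other cationic amino acids (from 4.74 ± 0.321 to 7.57 ± 0.543 FPKM), SLC43A2 (from 2.45 ± 0.365 to 3.96 ± 0.35 FPKM) and SLC7A5, the large neutral amino acid carrier that is abundant at the blood-brain barrier (from 49 ± 3.33 to 66 ± 2.41 FPKM). SLC38A2, a carrier of small neutral amino acids, fell from 135 ± 7.17 to 111 ± 9.62 FPKM and SLC6A15 from 4.66 ± 0.258 to 3.19 ± 0.407 FPKM. Of 26 genes of the ATF4 response and of serine synthesis 14 rose and 1 fell [upper quartile 11 and 2, quantile 9 and 2, trends removed 10 and 2, without both replicates 10 and 0], with a median of 0.18. PYCR1, an enzyme of proline synthesis, rose from 15 ± 0.852 to 23.5 ± 1.8 FPKM and the transcription factor ATF5 from 8.32 ± 0.937 to 11.8 ± 0.231 FPKM, although 21.2% of its exon length overlaps exons of the opposite strand. The log2 change shrank by over 1.5 times with the trends removed for SLC6A15 (-0.44, then -0.25), SLC38A2 (-0.28, then -0.11) and ATF5 (0.46, then 0.29).

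Polyamine and thioredoxin-related genes gave 11 rises and 4 falls among 25 tested [upper quartile 7 and 5, quantile 6 and 4, trends removed 7 and 2, without both replicates 6 and 2]. Beside ODC1, AHCY, which clears the product of methylation reactions, rose from 31 ± 1.38 to 42.9 ± 3.49 FPKM. TXNIP, which binds thioredoxin and limits glucose uptake, fell from 22.4 ± 1.03 to 14.2 ± 0.702 FPKM, a log2 change of -0.62 ± 0.049 (adjusted p = 1.86e-05). Fatty acid and lipid genes gave 12 rises and 2 falls among 41 tested [upper quartile 10 and 4, quantile 7 and 4, trends removed 12 and 4]. FABP5, a fatty acid carrier, rose from 3.16 ± 0.438 to 5.58 ± 0.241 FPKM, FADS3 from 8.2 ± 0.435 to 12 ± 0.914 FPKM and the lipid droplet protein PLIN3 from 61.9 ± 1.39 to 82.1 ± 4.87 FPKM. PPARG, a nuclear receptor of fat metabolism, fell from 6.81 ± 0.688 to 4.03 ± 0.238 FPKM (log2 change -0.63 ± 0.072). The median of the lipid list, 0.055, turned to -0.029 under quantile normalization. With the trends removed, the log2 change was over 1.5 times smaller for PLIN3 (0.40, then 0.23).

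Genes of the route that particles take into the cell changed in both directions, with a balance that moved with the scaling. Of 53 clathrin, adaptor and sorting genes 13 rose (24.5%) and 11 fell (20.8%) [upper quartile 7 and 14, quantile 6 and 17, trends removed 4 and 4, without both replicates 5 and 6]. Among all genes tested, 20.7% rose and 15.4% fell. The adaptor subunits AP1S1 (from 28.1 ± 1.5 to 40 ± 3.25 FPKM) and AP1B1 (from 20.3 ± 1.21 to 25.9 ± 1.28 FPKM) rose, and the endocytic adaptor EPS15 (from 13.9 ± 0.727 to 10.8 ± 0.797 FPKM) and sorting nexin SNX6 (from 39.7 ± 1.89 to 32.6 ± 2.06 FPKM) fell. Lysosomal hydrolases and membrane proteins rose in 11 of 54 cases (20.4%) and fell in 10 (18.5%) [upper quartile 8 and 16, quantile 6 and 16, trends removed 4 and 17, without both replicates 6 and 9]. The protease cathepsin S (CTSS) rose from 2.15 ± 0.278 to 3.28 ± 0.22 FPKM and TFE3, a transcription factor of lysosomal genes, from 24.2 ± 0.942 to 30.3 ± 1.37 FPKM. Cathepsin O (CTSO) fell from 4.57 ± 0.264 to 3.16 ± 0.319 FPKM, SCARB2, a membrane protein that carries an enzyme to lysosomes, from 23.1 ± 0.991 to 18.1 ± 1.01 FPKM, and the sulfatase IDS from 19.3 ± 1.03 to 15 ± 1.05 FPKM. Removal of the trends made the log2 change over 1.5 times smaller for TFE3 (0.31, then 0.18), SCARB2 (-0.34, then -0.19), AP1S1 (0.49, then 0.30) and EPS15 (-0.34, then -0.16).

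The proton pump and nutrient sensing list rose in 10 of 39 cases and fell in 6 [upper quartile 8 and 10, trends removed 6 and 6, without both replicates 4 and 5], with a median of 0.0071 that turned negative in every other scaling (-0.053 to -0.014). AKT1S1, an inhibitor within mTOR complex 1, rose from 17.5 ± 0.866 to 24.8 ± 1.01 FPKM, and RICTOR, of mTOR complex 2, fell from 8.55 ± 0.862 to 5.92 ± 0.84 FPKM. The largest change was that of the pump subunit ATP6V0C (from 2.66 ± 1.51 to 7.22 ± 0.639 FPKM), but 72.1% of its exon length overlaps another gene on the same strand, and its adjusted p was 0.0878 without 35 nm replicates 1 and 3. Autophagy genes fell in 11 of 50 cases and rose in 5 [trends removed 3 and 5, without both replicates 3 and 4]. ATG101 (from 7.03 ± 0.65 to 10.5 ± 0.791 FPKM) and the mitophagy receptor BNIP3 (from 11.9 ± 0.463 to 15.7 ± 0.358 FPKM) rose, and ATG14, of the kinase complex that starts autophagosomes, fell from 7.19 ± 0.127 to 5.62 ± 0.353 FPKM. Ion channel genes rose in 5 and fell in 5 of 35 cases (14.3% each) [upper quartile 3 and 7, trends removed 3 and 5, without both replicates 3 and 3]. PIEZO1, a channel opened by membrane stretch, rose from 26.8 ± 1.17 to 35.3 ± 1.33 FPKM, and TRPM7 fell from 9.79 ± 0.1 to 7.66 ± 0.52 FPKM. The log2 change shrank by over 1.5 times with the trends removed for RICTOR (-0.47, then -0.24) and TRPM7 (-0.32, then -0.14).

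Mitotic genes gave more falls than rises, but not once the trends were removed, and replication genes gave more rises, but not under quantile normalization. Of 49 G2/M genes 18 fell (36.7%) and 7 rose [quantile 3 and 23, trends removed 9 and 5, without both replicates 4 and 11]. ASPM, a spindle pole protein, fell from 29.3 ± 1.22 to 22.2 ± 2.1 FPKM, a call that held once the trends were removed, while KIF20B (from 26.8 ± 1.06 to 21.2 ± 2.05 FPKM) and SGO2 (from 14.6 ± 0.52 to 11.5 ± 0.711 FPKM) lost theirs (adjusted p 0.0799 and 0.189). CDC20, an activator of the anaphase-promoting complex, rose from 72.3 ± 2.76 to 92.7 ± 3.66 FPKM and AURKB from 52.8 ± 1.99 to 64.7 ± 1.64 FPKM. DNA replication genes gave 18 rises and 6 falls among 55 tested [quantile 8 and 12, trends removed 9 and 5, without both replicates 9 and 3], and their median of 0.055 turned to -0.026 under quantile normalization. The polymerase subunit POLD2 rose from 31.2 ± 0.827 to 41.7 ± 2.25 FPKM and the nuclease FEN1 from 66.7 ± 2.34 to 84.7 ± 3.37 FPKM, and the repressor E2F7 fell from 35.7 ± 2.19 to 28.2 ± 2.76 FPKM. Targets of p53 and DNA damage genes gave 11 rises and 5 falls among 36 tested [trends removed 10 and 1, without both replicates 9 and 3]. TP53I3 (from 13.2 ± 2.04 to 22 ± 2.18 FPKM), PHLDA3 (from 8.47 ± 0.591 to 11.8 ± 0.832 FPKM) and AEN (from 8.22 ± 0.588 to 11.3 ± 0.712 FPKM) rose, and the DNA damage kinase ATM fell from 9.43 ± 0.654 to 7.09 ± 0.43 FPKM. With the trends removed, the log2 change was over 1.5 times smaller for CDC20 (0.35, then 0.16), AURKB (0.29, then 0.11), ASPM (-0.39, then -0.18), KIF20B (-0.33, then -0.10), SGO2 (-0.32, then -0.11), POLD2 (0.41, then 0.27), FEN1 (0.34, then 0.19), PHLDA3 (0.44, then 0.28) and ATM (-0.37, then -0.16).

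Splicing and chromatin genes changed in both directions. SR proteins, hnRNPs and their kinases rose in 19 of 48 cases and fell in 11 [trends removed 25 and 6], with a median of 0.06 that turned to -0.019 under quantile normalization. HNRNPAB rose from 83.2 ± 6.28 to 120.4 ± 11.8 FPKM and HNRNPL from 21.4 ± 0.545 to 28.8 ± 1.62 FPKM, while SRSF11 fell from 36.8 ± 1.12 to 26.6 ± 1.83 FPKM and LUC7L3 from 23.2 ± 0.811 to 17.2 ± 1.04 FPKM, both in the direction of CLK1. Chromatin regulators fell in 10 of 58 cases and rose in 3 [upper quartile 2 and 17, trends removed 6 and 6, without both replicates 2 and 4]. The acetyltransferase KAT2B fell from 10.9 ± 0.365 to 7.29 ± 0.885 FPKM and SUZ12, a subunit of the Polycomb complex that methylates histones, from 26.4 ± 1.23 to 20.8 ± 1.73 FPKM, and the remodelling ATPase SMARCA4 rose from 16.8 ± 0.929 to 21.3 ± 0.603 FPKM. Histone variant genes gave 5 rises and 2 falls among 18 tested [quantile 3 and 4], with H2AFZ higher (from 141 ± 3.04 to 183 ± 5.01 FPKM) and HIST3H2A lower (from 14.2 ± 0.956 to 10.8 ± 0.276 FPKM). Of 16 clock genes 1 rose and 3 fell [trends removed 3 and 4]. The repressor BHLHE40 rose from 18 ± 0.933 to 24.3 ± 1.39 FPKM, and NR1D2 (from 20.2 ± 1.14 to 15.3 ± 1.69 FPKM) and PER3 (from 3.47 ± 0.107 to 2.61 ± 0.0443 FPKM) fell. Removal of the trends made the log2 change over 1.5 times smaller for SRSF11 (-0.45, then -0.24), LUC7L3 (-0.41, then -0.21), NR1D2 (-0.38, then -0.23) and SUZ12 (-0.33, then -0.16).

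As coding genes at 1 to 5 FPKM did, noncoding genes gave more falls than rises. Their rises and falls were 91 and 206 by rescaling to the upper quartile, 121 and 167 by quantile normalization and 83 and 177 with the trends removed, where coding genes gave 1928 and 2252, 1977 and 1916, and 1846 and 1234. In the reported fit the counts were as follows. Of 1670 noncoding genes tested, 113 rose (6.77%) and 184 fell, where 2411 of 10538 protein-coding genes rose (22.9%) and 1692 fell (16.1%). Noncoding genes were also lower in level, with a median over genes of 2.17 FPKM where coding genes had 8.91. Among genes of 5 to 20 FPKM, 28 of 80 long noncoding RNAs were called (35.0%), 10 higher and 18 lower, where 39.6% of coding genes of that level were. At 1 to 5 FPKM, 30 of 675 long noncoding RNAs rose (4.44%) and 59 fell (8.74%). Of 3214 coding genes at that level 274 rose (8.53%) and 438 fell (13.6%). Pseudogenes gave 20 rises and 37 falls at 1 to 5 FPKM, 25 and 21 at 5 to 20 FPKM, and 20 and 12 at 20 FPKM or more. Long noncoding RNAs as a whole rose in 42 and fell in 81 of 766 cases, pseudogenes in 65 and 70 of 605, and small noncoding RNAs in 5 and 20 of 242. Processed pseudogenes, the copies of spliced messages, rose in 48 and fell in 29 of 360 cases.

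The share of gene reads by class differed between the groups for every class. Long noncoding RNAs took 0.893%, 0.872%, 0.869% and 0.862% of gene reads in the 4 controls and 0.770%, 0.789%, 0.748% and 0.789% at 35 nm. The mean fell by 0.10 percentage points, from 0.874 ± 0.0134% to 0.774 ± 0.0192%, with no overlap. Protein-coding genes outside the mitochondrial chromosome took 95.3 ± 0.0705% in controls and 96.6 ± 0.0541% at 35 nm. Genes of the mitochondrial chromosome, which serve respiration and translation inside the organelle, took 3.12 ± 0.0558% and 1.89 ± 0.0597%, and 18 of its 32 genes tested fell while 0 rose. With the mitochondrial chromosome left out of the total, coding genes rose by 0.159 percentage points and long noncoding RNAs fell by 0.114. Pseudogenes went from 0.691 ± 0.00998% to 0.663 ± 0.0145% and small noncoding RNAs from 0.013 ± 0.000674% to 0.011 ± 0.000663%. Each of the 6 classes, the remaining genes included, gave a two-sided exact permutation p of 0.0286 (adjusted over 6 classes, also 0.0286), which is the smallest that 4 against 4 libraries allow. The shares of a library sum to the whole, so the classes are not independent.

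**Figure D4:**
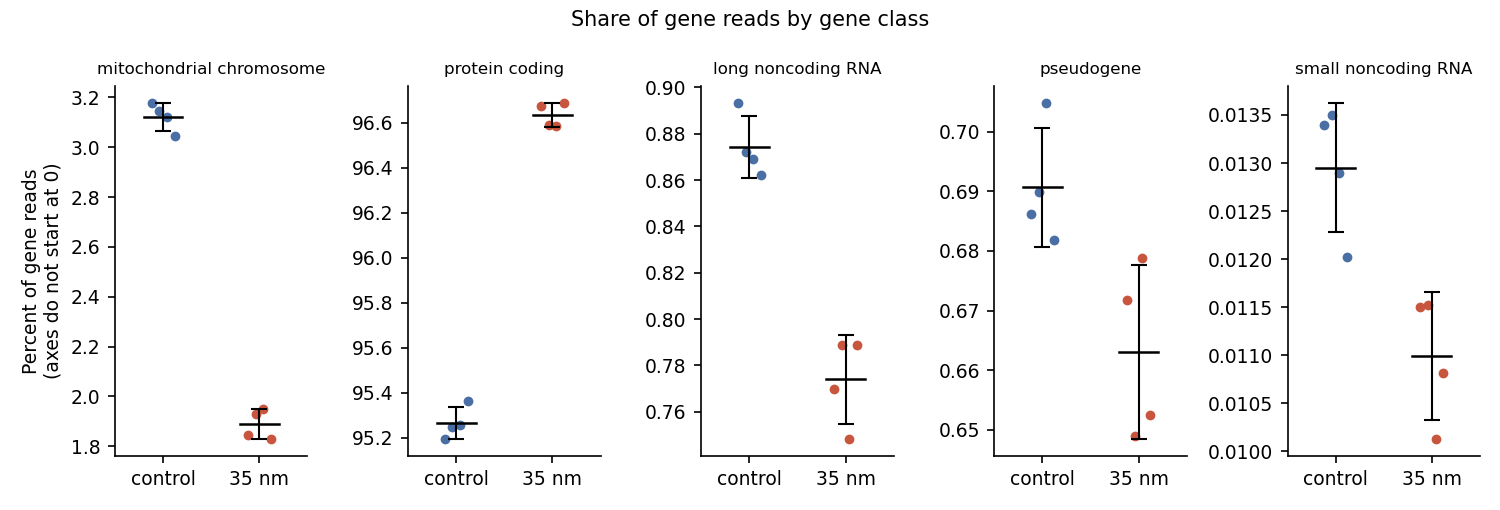
Percent of gene reads taken by 5 classes of genes in each library, with the mean ± SD of 4 libraries per group; the axes do not start at 0. The 35 nm libraries lie above all controls for protein-coding genes (96.6% on average against 95.3%) and below them for the 4 other classes shown.

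Single long noncoding RNAs changed in both directions. AL445490.1, an antisense gene of 1651 bases of exon (chromosome 1, 27669468 to 27703063, plus strand), had 120, 106, 143 and 129 reads in the 4 controls and 23, 15, 24 and 16 at 35 nm. That is 7.11 ± 0.943 FPKM in controls and 1.15 ± 0.288 at 35 nm, a log2 change of -1.92 ± 0.11 (adjusted p = 3.72e-06), with a wide gap between the groups. BISPR, known as a regulator of the neighbouring antiviral gene BST2 and induced by interferon, was at 6.79, 6.91, 8.28 and 7.37 FPKM in controls and 3.08, 3.02, 3.02 and 3.28 at 35 nm (log2 change -1.02 ± 0.066), though 19.9% of its exon length overlaps another gene of the same strand. Both are noncoding genes outside the interferon list. MALAT1 and NEAT1 are abundant nuclear RNAs of the same region of chromosome 11, and NEAT1 was added after its values were seen. MALAT1 was at 13.1, 9.78, 12.6 and 8.87 FPKM in controls and 6.29, 6.95, 6.04 and 6.8 at 35 nm (log2 change -0.67 ± 0.11, adjusted p = 0.00164). The control spread of MALAT1 was several times that of the treated libraries, but the groups did not overlap. NEAT1 fell from 8.57 ± 0.451 to 6.25 ± 0.336 FPKM (adjusted p = 0.000503) and GABPB1-AS1 from 3.56 ± 0.194 to 2.04 ± 0.193 FPKM. Of 37 hosts of small nucleolar RNAs and other abundant long noncoding RNAs 8 fell and 4 rose [trends removed 7 and 6]. DANCR, a host gene, rose from 5.3 ± 0.26 to 8.17 ± 0.28 FPKM (adjusted p = 5.52e-05) and SNHG7 from 6.3 ± 0.324 to 8.77 ± 0.854 FPKM, with 25.2% of its exon length opposite exons of another gene. The log2 change shrank by over 1.5 times with the trends removed for SNHG7 (0.42, then 0.24).

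The largest noncoding changes by rank rested on few reads. MIR4479, the hairpin gene of a microRNA, had 1, 0, 0 and 0 reads in the controls and 6, 2, 4 and 3 at 35 nm, and MIR93 had 5, 5, 4 and 3 and 1, 0, 0 and 0. These reads describe the hairpin locus and give no level of the mature microRNA. RF00019 on chromosome 3, an entry of the Y RNA family, had 6, 12, 13 and 9 reads and then 2, 4, 2 and 0, and its adjusted p was 0.0718 without 35 nm replicates 1 and 3. SNORD94, a small nucleolar RNA, had 7, 17, 7 and 9 and 3, 5, 1 and 5 reads, and its call (adjusted p = 0.0466) was lost when any 1 of 7 libraries was left out, with p up to 0.0997, and with the trends removed (0.0668). MIR4740 had 1, 2, 1 and 1 and 2, 4, 4 and 4 reads, and its adjusted p was 0.144 at the highest over the alternative fits.

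Longer noncoding genes rested on more reads. The processed pseudogene PPP1R14BP3 had 22, 35, 22 and 61 reads in controls and 115, 83, 93 and 88 at 35 nm (log2 change 1.46 ± 0.31), and its adjusted p was 0.0833 without 35 nm replicates 1 and 3. The lincRNA AP001527.2 had 24, 25, 25 and 14 and 52, 39, 33 and 50 reads. The antisense gene AL138724.1 had 19, 20, 22 and 32 and 51, 60, 42 and 52 reads, with 51.3% of its exon length opposite exons of another gene, and AL731577.2 shares 76.6% of its exon length with a gene of the same strand. Among falls, the processed pseudogene AC078817.1 had 37, 47, 82 and 52 and 21, 11, 29 and 12 reads. MTATP6P1, a nuclear copy of mitochondrial sequence on chromosome 1, was at 179.8, 162, 227 and 139 FPKM in controls and 79.7, 72.8, 87.2 and 76.2 at 35 nm. It fell as the genes of the mitochondrial chromosome did, and whether its reads came from them was not tested. No gene was at 0 reads in all 4 libraries of one group with at least 3 reads in each library of the other.

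**Figure D5:**
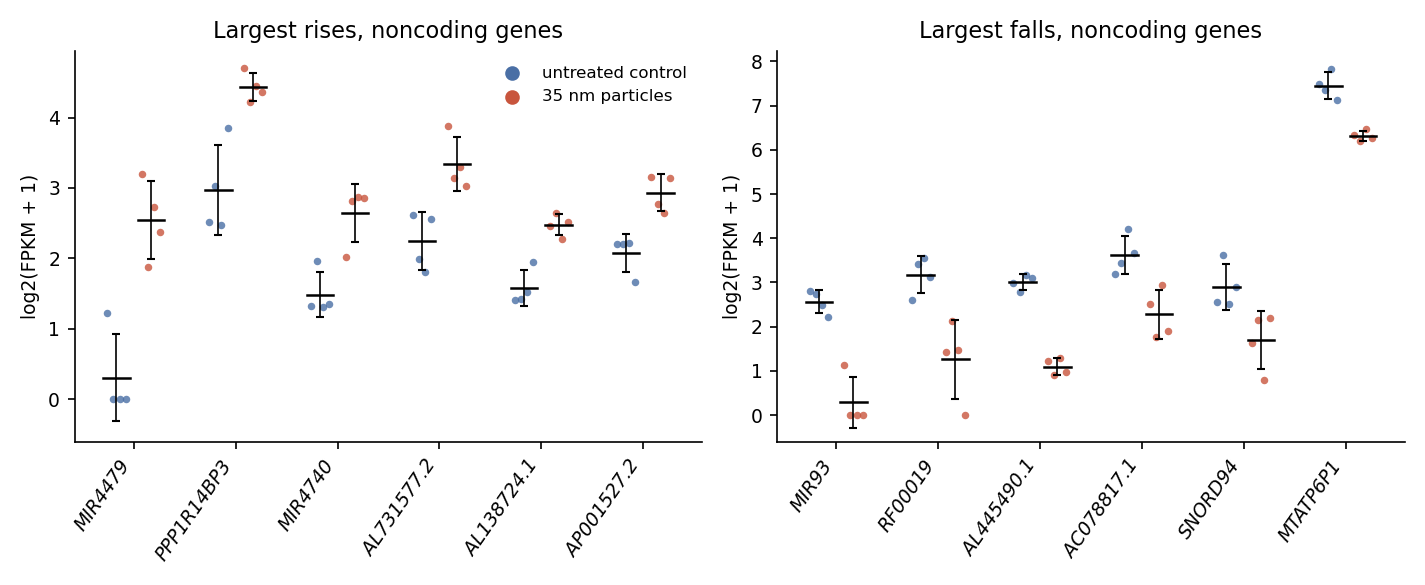
Level, as log2(FPKM + 1), of called noncoding genes at a mean of 2 FPKM or more, for the 6 that rose and the 6 that fell most. Points are libraries (4 per group), bars the mean ± SD. The 12 were picked among genes whose groups do not overlap, and MIR4479 and MIR93 have libraries at 0.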

How the data were processed

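The authors deposited 1 table of FPKM values for 58735 genes, with gene coordinates and lengths. The submitters' processing notes name Bowtie 0.12.2 and hg19, whereas the coordinates and exon-union lengths of all 58735 genes equalled those of GENCODE 29 (GRCh38), which are given here, and the alignment build was not settled. Names of 27 genes were dates and were named again by identifier. Multiplied by gene length and library size, the FPKM values gave whole reads within 0.01 for 100% of values, so 3 reads over 1 kb equal 0.274 to 0.3 FPKM; this covers counting error only.

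The 4 control and 4 35 nm libraries were compared on log2(FPKM + 1) for genes averaging 1 FPKM or more, by limma 3.58.1 (R 4.3.3, prior with trend and robust option); two-sided p-values were adjusted over all genes tested by the Benjamini-Hochberg method. The pseudocount of 1 understates the change of low genes. Tables and figures were made with Python 3.11.15, numpy 2.4.6, pandas 2.3.3 and matplotlib 3.10.9. Length and GC trends were removed per library by lowess with a span of 0.3. Class shares were tested by an exact permutation test over libraries.

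The 38 lists described, the 2 lists set aside, the members and the tests were chosen with earlier results of these data known. Genes named by rank are called genes with separate groups, outside the lists set aside and the mitochondrial chromosome. They are the 12 largest coding rises and falls from a mean of 5 FPKM and the 6 largest noncoding ones from 2 FPKM. The 6 smallest p-values in each direction were taken under the same conditions. Up to 3 called members of each list in each direction were named without these conditions, so the groups of some overlap. Of these 236 genes, 211 kept their call with any 1 library left out; list members outside the 211 are counted but not described, a choice made after seeing the data. The alternatives were a pseudocount of 0.1, no filter, a filter at 5 FPKM, all 12 libraries, upper-quartile and quantile scaling, removal of the trends, limma-voom on the recovered reads, each library left out, and a replicate block. The fit without 35 nm replicates 1 and 3 was added after seeing the data. The limma fit was tested on simulated data. Some genes that the rule selects are not reported here.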

Additional observations from a re-analysis of the deposited data

Results flagged for a closer look

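Within groups of 4 libraries, 26 of 490 groups examined (5.31%) held 1 library far from the other 3, where chance alone marks about 1 in 20. For each, the ratio is the gap to the nearest other library divided by the range of the group on the log2(FPKM + 1) scale. The libraries stood as follows.

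CLDN1 was at 3.2 FPKM in control replicate 1, below the other 3 (4.29 to 4.43), a ratio of 0.904. In 35 nm replicate 2, NUAK2 was at 13.5 FPKM, below a range of 15.1 to 15.4 in the others (ratio 0.847). A ratio of 0.88 was found for EDF1, where control replicate 4 had 56.1 FPKM, above 44.4 to 45.7 in the rest. MIR4479 was at 1.34 FPKM in control replicate 1 and at 0 in the other 3 (ratio 1). MIR4740 was at 2.9 FPKM in control replicate 2, above the other 3 (1.47 to 1.55), a ratio of 0.931. In 35 nm replicate 1, MIR4740 was at 3.07 FPKM, below a range of 6.02 to 6.34 in the others (ratio 0.924). A ratio of 0.974 was found for AP001527.2, where control replicate 4 had 2.17 FPKM, below 3.62 to 3.67 in the rest. MIR93 was at 1.21 FPKM in 35 nm replicate 1 and at 0 in the other 3 (ratio 1). ADAM8 was at 1.43 FPKM in control replicate 3, above the other 3 (1.21 to 1.24), a ratio of 0.857. In control replicate 1, GREM1 was at 18.7 FPKM, below a range of 20.9 to 21.1 in the others (ratio 0.923). A ratio of 0.908 was found for CAV2, where 35 nm replicate 3 had 9.49 FPKM, below 11.7 to 11.9 in the rest. For SOX12, control replicate 3 stood at 11.3 FPKM, below its group's 12 to 12.1 (ratio 0.834). SOX12 was at 16.7 FPKM in 35 nm replicate 1, above the other 3 (14.2 to 14.6), a ratio of 0.848.

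In 35 nm replicate 2, VARS was at 26.7 FPKM, below a range of 28.1 to 28.4 in the others (ratio 0.875). A ratio of 0.836 was found for PSMA7, where 35 nm replicate 1 had 127 FPKM, above 117 to 119 in the rest. For ATP6V0C, 35 nm replicate 3 stood at 6.27 FPKM, below its group's 7.46 to 7.67 (ratio 0.86). ATG101 was at 8 FPKM in control replicate 4, above the other 3 (6.6 to 6.81), a ratio of 0.844. In control replicate 1, RB1CC1 was at 15.4 FPKM, below a range of 17.9 to 18.4 in the others (ratio 0.838). A ratio of 0.854 was found for AP1B1, where control replicate 4 had 22.1 FPKM, above 19.5 to 19.9 in the rest. For SGO2, control replicate 2 stood at 13.8 FPKM, below its group's 14.8 to 14.9 (ratio 0.953). AEN was at 12.4 FPKM in 35 nm replicate 1, above the other 3 (10.8 to 11), a ratio of 0.863. In control replicate 3, BRCA2 was at 6.78 FPKM, above a range of 6.01 to 6.13 in the others (ratio 0.832). A ratio of 0.961 was found for CD70, where 35 nm replicate 2 had 1.79 FPKM, below 3.4 to 3.49 in the rest. For FADS3, control replicate 1 stood at 8.85 FPKM, above its group's 7.91 to 8.02 (ratio 0.874). HDAC4 was at 5.94 FPKM in 35 nm replicate 4, above the other 3 (5.39 to 5.4), a ratio of 0.973. In 35 nm replicate 4, HIST1H2AC was at 25.1 FPKM, above a range of 19.5 to 20 in the others (ratio 0.901).

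By library, the marks numbered 5, 2, 3 and 4 in control replicates 1 to 4 and 5, 3, 2 and 2 in 35 nm replicates 1 to 4. No cause was tested for any of them.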

How the results depend on the processing

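The 4400 calls became 3523 to 4202 with 1 library left out (2095 to 2405 rises, 1391 to 1797 falls), and the 297 noncoding calls became 234 to 266. Without 35 nm replicates 1 and 3, a fit added after seeing the data, 2642 genes passed, 1623 upward and 1019 downward, of which 185 were noncoding. A filter at 5 FPKM left 137 noncoding calls, since fewer genes were tested. The labels do not say whether replicate numbers pair the libraries. Same-numbered deviations correlated at -0.011 to 0.020, and those of different number at -0.105 to 0.066. No shared effect of a number was seen, which cannot show whether the libraries were paired by design. A replicate block gave 3763 calls (2249 rises, 1514 falls, 308 noncoding), and with the length and GC trends also removed it gave 2737 (1635 rises, 1102 falls). Limma-voom on recovered reads gave 2408 rises and 2579 falls, or 48.3% rises. Of 239 genes named or added, 200 kept direction and call once the trends were removed, 214 with no filter and 198 without 35 nm replicates 1 and 3. ITGA3 rose in the reported fit and was at -0.012 under quantile normalization, and the cause was not tested. The difference in class shares was -0.0329 to -0.0229 percentage points for pseudogenes and -0.00227 to -0.00167 for small noncoding RNAs with 1 library left out, with adjusted p up to 0.0571. List medians moved by more than the spread between replicates in 36 of 38 lists under upper-quartile rescaling and in 27 under quantile normalization. Depth limits genes near 1 FPKM, since 3 reads over 1 kb equal 0.274 to 0.3 FPKM.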
